A study of Homo sapiens with 9 samples.

Results

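ABCB11, DSEL, KCNN2 and OPRK1 are 4 protein-coding genes whose RNA fell steeply in LNCaP prostate cancer cells after neuregulin 1 (NRG1), a ligand of the receptor HER3. They were chosen by their falls at 12 h and 24 h against 0 h among the 37351 genes of the deposited table, of which 19250 had enough reads to be tested. Because they were chosen on these contrasts, their levels and fold changes are given as a description, without a test. LNCaP is an established, androgen-responsive human line from metastatic prostate carcinoma, with 1 genetic background in every library. Cells were held for 6 to 12 h in medium without serum and calcium and then treated with recombinant NRG1 at 15 ng/mL, and polyadenylated RNA was sequenced at 0 h, 12 h and 24 h, with 3 libraries labelled as biological replicates at each time. Every group carried the same starvation and the same NRG1 label, and the 0 h group is the only baseline analysed here, so NRG1 and the longer time in starvation medium cannot be told apart. The p-values below measure the spread between these libraries, which came from wells plated in triplicate.

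The 4 genes belong to different systems. ABCB11 encodes the bile salt export pump, an ATP-driven transporter known from the canalicular membrane of the liver. DSEL encodes a dermatan sulfate epimerase-like enzyme, one of the epimerases that turn glucuronic acid into iduronic acid in chondroitin chains and so make dermatan sulfate. KCNN2 encodes SK2, a small-conductance potassium channel that opens when calcium binds to its calmodulin subunit. OPRK1 encodes the kappa opioid receptor, a Gi-coupled receptor for dynorphins. NRG1 binding to HER3 brings it together with HER2, which signals through PI3K/AKT and MAPK/ERK in epithelial cells.

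The promoters of the genes are shown to let their composition be compared. That the genes fell together follows from how they were chosen. Each line is 300 bases from RefSeq on GRCh38.p14, from 250 bases before to 50 after the RefSeq start, 5′ to 3′ on the strand of the gene, and 3 of the 4 genes had an entry. Capitals mark the motifs named after the sequences. The windows lie at chr2:169031275-169031574 on the minus strand for ABCB11, at chr18:67516671-67516970 on the minus strand for DSEL and at chr5:114361820-114362119 on the plus strand for KCNN2.
ABCB11: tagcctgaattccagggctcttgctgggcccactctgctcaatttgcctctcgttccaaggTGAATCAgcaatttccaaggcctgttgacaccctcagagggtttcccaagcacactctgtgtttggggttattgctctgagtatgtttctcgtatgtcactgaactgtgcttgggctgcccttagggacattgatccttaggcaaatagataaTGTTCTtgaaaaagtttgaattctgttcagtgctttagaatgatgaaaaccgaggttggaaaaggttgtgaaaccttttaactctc
DSEL: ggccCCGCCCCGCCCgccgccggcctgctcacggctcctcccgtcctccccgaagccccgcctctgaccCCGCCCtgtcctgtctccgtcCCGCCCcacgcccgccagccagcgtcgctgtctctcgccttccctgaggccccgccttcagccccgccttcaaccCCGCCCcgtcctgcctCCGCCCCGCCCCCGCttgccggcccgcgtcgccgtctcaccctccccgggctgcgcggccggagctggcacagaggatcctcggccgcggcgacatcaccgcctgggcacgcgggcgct
KCNN2: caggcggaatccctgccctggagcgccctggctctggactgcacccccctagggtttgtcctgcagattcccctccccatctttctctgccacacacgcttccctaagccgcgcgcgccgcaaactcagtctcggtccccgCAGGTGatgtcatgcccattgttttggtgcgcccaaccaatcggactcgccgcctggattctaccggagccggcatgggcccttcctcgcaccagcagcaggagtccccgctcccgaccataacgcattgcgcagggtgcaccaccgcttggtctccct

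The 3 promoters had little in common. ABCB11 was AT-rich, with 45% GC and 3 CpG dinucleotides, DSEL was GC-rich, with 79% GC and 41 CpG, and KCNN2 lay between them with 64.7% GC and 22 CpG. Over all 35116 promoters of the same length the median was 58.7% GC and 14 CpG. The ABCB11 and DSEL starts were also the outermost starts of the genes in the deposited table, whereas the KCNN2 start of RefSeq lay 306 kb inside the outermost start given there. Motifs were searched on both strands. ABCB11 held the AP-1 motif TGANTCA 189 bases before the start, which 7.71% of all promoters held, and the androgen response half-site AGAACA, read on the opposite strand, 36 bases before the start, which 14.8% held. DSEL held 7 GC boxes (GGGCGG, in 45% of promoters) and the EGR motif GCGGGGGCG (in 5.07%), all on the opposite strand. The EGR motif at 63 bases before the start overlapped GC boxes. KCNN2 held the E2-box CACCTG on the opposite strand 109 bases before the start, which 20.6% of promoters held. None of the 3 windows held CACGTG (7.26% of promoters), TGACGTCA (1.85%), CCGGAAGT (4.14%), TGTTTAC (3.42%) or TATAAA (11.5%), and no motif listed here was held by more than 1 of the 3. A match describes letters in these windows and is not evidence of a bound site.

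ABCB11 (ENSG00000073734.10, chromosome 2, 168915498 to 169031324, minus strand, coordinates of the deposited table on GRCh38) fell furthest. It stood at 11.1, 10.7 and 11.3 CPM (reads per 1e+06 reads of a library, after scaling between libraries) in the 0 h libraries, at 3.02, 2.82 and 2.52 CPM at 12 h, and at 0.98, 0.92 and 1.57 CPM at 24 h. The groups did not overlap at any step, and the third 24 h library stood above the other two. A library held 622 to 689 of its reads at 0 h and 122 to 163 at 12 h, but only 46 to 82 at 24 h. Mean levels were 11 ± 0.271, 2.79 ± 0.252 and 1.16 ± 0.362 CPM (SD, n = 3 each). The fitted log2 fold change was -1.98 (SE 0.12) at 12 h and -3.25 (SE 0.14) at 24 h against 0 h, and -1.27 (SE 0.16) from 12 h to 24 h. Without the third 24 h library the 24 h value was -3.54. At 24 h 10.5% of the 0 h level was left, between 8.33% and 14.3% in single libraries.

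Hepatocyte markers were followed beside ABCB11 because the pump is a gene of liver cells. The summed level of the 7 markers ran from 5.14 to 6.19 CPM at 0 h, from 4.45 to 5.19 CPM at 12 h and from 3.15 to 3.66 CPM at 24 h. ALB, which encodes serum albumin, made up most of it and fell from 3.45 ± 0.470 to 1.82 ± 0.102 CPM at 24 h (SD, n = 3 each), a log2 fold change of -0.92 (edgeR, adjusted p = 2.74e-05), and the other 6 markers averaged under 1 CPM. Of the 4 tested hepatocyte markers 1 was lower at 12 h, where 1.38% of all tested genes were, and 2 at 24 h, where 1.78% were. The first was APOA1, an apolipoprotein, at -1.26 (adjusted p = 0.0366) at 12 h and -0.014 (adjusted p = 0.987) at 24 h, and the second at 24 h, beside ALB, was TTR, the thyroxine carrier transthyretin, at -0.95 (adjusted p = 0.0215). Their part in the ABCB11 result was not tested. The luminal prostate markers, which define the line, were all present, with sums of 4653 to 4782 CPM at 0 h, 4854 to 4897 CPM at 12 h and 4486 to 4696 CPM at 24 h. Leukocyte markers summed to at most 0.473 CPM in any library. The 6 neuronal markers summed to between 8.97 and 9.41 CPM at 0 h and between 10.4 and 11.8 CPM at 24 h, and 0 of their 2 tested genes were called by edgeR or by DESeq2 at 24 h (1 at unadjusted p under 0.05). The 6 fibroblast markers ran from 25.5 to 28.8 CPM at 0 h and from 26.4 to 26.8 CPM at 24 h, with COL1A1 making up most of the sum. Of their 4 tested genes 1 was called, COL3A1, a collagen gene that rose from 0.567 ± 0.252 to 1.13 ± 0.0592 CPM at 12 h and 1.43 ± 0.259 CPM at 24 h (SD, n = 3 each), by 0.98 (adjusted p = 0.009) and 1.32 (adjusted p = 0.00032) on the log2 scale. Each library is bulk RNA of the 1 cell line. A change in the share of its cells that express a marker and a change in RNA per cell cannot be told apart.

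DSEL (ENSG00000171451.15, chromosome 18, 67506587 to 67516720, minus strand) was the most abundant of the 4 and had the smallest standard errors of the fitted fold changes. Its libraries held 177, 176 and 161 CPM at 0 h, 65.6, 61 and 64.0 CPM at 12 h, and 38.5, 37.1 and 41.0 CPM at 24 h. No group overlapped the next, and the fewest reads in any library were 1808. The means were 171 ± 8.86, 63.5 ± 2.32 and 38.9 ± 1.95 CPM (SD, n = 3 each), so that 37.1% of the 0 h level was left at 12 h and 22.7% at 24 h. The log2 fold change was -1.43 (SE 0.041) at 12 h and -2.14 (SE 0.043) at 24 h, with -0.71 (SE 0.044) between 12 h and 24 h.

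KCNN2 (ENSG00000080709.16, chromosome 5, 114055926 to 114496500, plus strand) dropped early and then more slowly. It was measured at 22.5, 23.4 and 23.0 CPM at 0 h, at 8.69, 8.12 and 8.41 CPM at 12 h, and at 6.44, 6.57 and 5.70 CPM at 24 h. All 3 groups were separate, and the spread within each was small beside the first step. Mean levels were 23.0 ± 0.471, 8.41 ± 0.286 and 6.23 ± 0.465 CPM (SD, n = 3 each). The log2 fold change was -1.45 (SE 0.07) at 12 h, -1.88 (SE 0.073) at 24 h and -0.43 (SE 0.08) from 12 h to 24 h, and 27.1% of the 0 h level was left at 24 h.

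OPRK1 (ENSG00000082556.14, chromosome 8, 53225724 to 53251637, minus strand) had the shallowest fall. It stood at 8.15, 7.37 and 6.92 CPM at 0 h, at 3.26, 3.18 and 3.26 CPM at 12 h, and at 2.71, 2.65 and 3.23 CPM at 24 h. Both later groups lay below every 0 h library, but they overlapped each other, since the third 24 h library exceeded the lowest 12 h library. The means were 7.48 ± 0.621, 3.23 ± 0.048 and 2.86 ± 0.318 CPM (SD, n = 3 each), with 158 to 176 reads per library at 12 h and 127 to 168 at 24 h. The log2 fold change was -1.21 (SE 0.11) at 12 h and -1.39 (SE 0.11) at 24 h. From 12 h to 24 h it was -0.18 (SE 0.13), within 2 standard errors of no change.

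**Figure D1:**
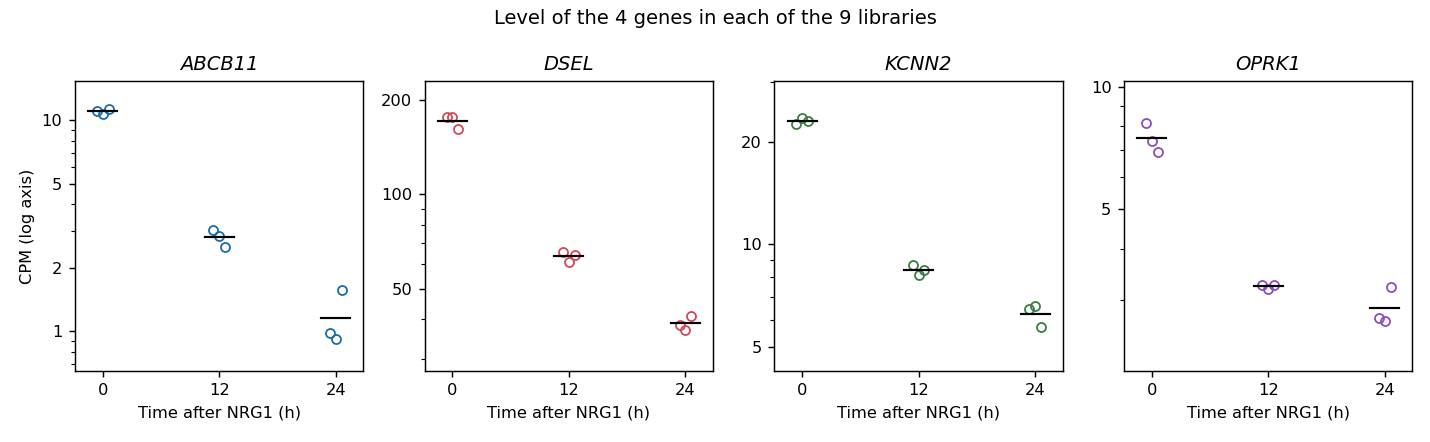
Level of ABCB11, DSEL, KCNN2 and OPRK1 in CPM (log axis, a separate scale for each gene) against hours after NRG1, with 1 circle per library and a bar at the mean of each group of 3. Every 12 h and 24 h library lies below every 0 h library, and only for OPRK1 do the 12 h and 24 h libraries overlap.

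The 4 genes differed in how deep they fell and in how the fall was divided over time. Read as a share of the 0 h mean, 25.3% of ABCB11, 36.6% of KCNN2, 37.1% of DSEL and 43.3% of OPRK1 was left at 12 h. The share of the 12 h level still present at 24 h was 41.6% for ABCB11, 61.2% for DSEL, 74.2% for KCNN2 and 88.4% for OPRK1. ABCB11 and DSEL thus went on falling, while OPRK1 had made 87.3% of its 24 h log2 change by 12 h, against 77.1% for KCNN2, 66.9% for DSEL and 61% for ABCB11. The mean halving time over the first 12 h was 6.06 h for ABCB11, 8.27 h for KCNN2, 8.4 h for DSEL and 9.92 h for OPRK1, and over the second 12 h it was 9.48 h for ABCB11, 16.9 h for DSEL and 27.8 h for KCNN2. For OPRK1 the second interval held too small a change to time. Halving times are the interval divided by the log2 change and describe the net level, not RNA decay. In every gene the log2 change over the second interval was smaller in size than over the first, by 0.72 (SE 0.24) for ABCB11, 0.72 (SE 0.07) for DSEL, 1.02 (SE 0.13) for KCNN2 and 1.03 (SE 0.21) for OPRK1.

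Per length of merged exons, DSEL was the highest of the 4 at each time and KCNN2 the next, while ABCB11 and OPRK1 exchanged places. At 0 h the level was 18.5 CPM per kb for DSEL, 3.76 for KCNN2, 1.43 for ABCB11 and 1.32 for OPRK1. The libraries of the last pair overlapped, between 1.39 and 1.46 CPM per kb for ABCB11 and between 1.22 and 1.44 for OPRK1, so their order at 0 h was within the spread. At 12 h ABCB11 stood at 0.361 CPM per kb and OPRK1 at 0.57, and at 24 h at 0.15 and 0.504, with no overlap at either time.

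A gene was called where the edgeR adjusted p was at most 0.05 and the fold change at least 1.5. All 4 genes were called lower at 12 h and at 24 h, where 1.38% and 1.78% of the 19250 tested genes were. Every 12 h library lay below every 0 h library in 15.3% of tested genes, and every 24 h library in 16.2%. ABCB11, DSEL and KCNN2 also had every 24 h library below every 12 h library, as 12.3% of tested genes did. Since the rule used these contrasts, nothing is read from these counts. When only genes averaging log2 CPM 2 or more were ranked, ABCB11, KCNN2 and DSEL had the lowest 3 log2 fold changes at 12 h and OPRK1 the fifth, and at 24 h OPRK1 ranked 8. The average takes in the 0 h libraries, where these genes are high. Over all 19250 tested genes, low ones included, the ranks at 12 h were 18 for ABCB11, 74 for KCNN2, 82 for DSEL and 160 for OPRK1, and at 24 h 2, 31, 15 and 99. A further order at 12 h took only called genes averaging log2 CPM 2 or more, without overlap between the 0 h and 12 h libraries. There PEG3, an imprinted zinc finger gene that is not one of the 4, came between DSEL and OPRK1 at -1.38. In the same order LRATD1, at -0.97, came next after OPRK1 at -1.21. Library totals ran from 58267359 to 60985825 counts at 0 h and from 47016302 to 54605125 later, and after thinning every library to the smallest total the 24 h values were -3.26, -2.13, -1.90 and -1.39 for ABCB11, DSEL, KCNN2 and OPRK1.

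The genes around the 4 loci were compared to see whether the fall extended along the chromosome. The table held 24 genes within 500 kb of the 4, and 12 of them were tested. At 12 h 2 of the 12 were lower and none higher (16.7%, against 2.37% of all tested genes called), and at 24 h 3 were lower and none higher (25%, against 3.31%). Of these 3, RP11-492A10.1 passed the filter on low counts only through its 0 h libraries. A call for it could only be lower, so it is not read as support, and DESeq2 called 2 at 24 h. From 12 h to 24 h 0 of 12 were called by edgeR or by DESeq2 (2 at unadjusted p under 0.05), against 0.452% of all tested genes. The median log2 fold change of the 12 was -0.08 at 12 h and -0.04 at 24 h, beside -0.008 and -0.007 over all tested genes. The neighbours that were lower were all long noncoding RNAs (lncRNAs), a division made after their values were seen. Of 4 tested lncRNAs, 2 were called at 12 h and 3 at 24 h, where 2.94% and 3.94% of all 3706 tested lncRNAs were. RP11-492A10.1 is among the 3 here too. Of 8 tested protein-coding neighbours, 0 were called by edgeR or by DESeq2 at either time (3 at unadjusted p under 0.05 at 12 h and 1 at 24 h), and their log2 fold changes lay between -0.13 and 0.22 at 12 h and between -0.07 and 0.16 at 24 h.

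CTD-2541J13.1, an lncRNA on the same strand as DSEL and 21.6 kb beyond its end (chromosome 18, 67481791 to 67484966, minus strand), fell with it. It had 140, 107 and 86 reads at 0 h, 36, 28 and 25 at 12 h, and 20, 17 and 15 at 24 h, without overlap between groups. Mean levels were 1.86 ± 0.393, 0.571 ± 0.0834 and 0.342 ± 0.0737 CPM (SD, n = 3 each), with a log2 fold change of -1.70 (edgeR, adjusted p = 3.24e-06) at 12 h and -2.44 (adjusted p = 7.9e-09) at 24 h. Its reads came to 1.02% of those of DSEL. The change from 12 h to 24 h was -0.75 (adjusted p = 0.158). Whether reads running on from DSEL have a part in it was not tested. DSEL-AS1, which overlaps the first bases of DSEL on the other strand, had 12, 7 and 8 reads at 0 h and 2, 3 and 1 at 24 h and was under the filter on low counts. No protein-coding gene within 500 kb of DSEL was tested.

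RP11-1081M5.1 (chromosome 8, 53394110 to 53484067, minus strand) is an lncRNA 142 kb before the start of OPRK1, on the same strand, and had more reads than OPRK1. It held 9.29, 9.83 and 9.04 CPM at 0 h, 4.74, 5.17 and 5.78 CPM at 12 h, and 4.97, 5.46 and 4.47 CPM at 24 h. All later libraries lay below the 0 h libraries, and the later groups overlapped each other, as those of OPRK1 did. The log2 fold change was -0.85 (edgeR, adjusted p = 2.37e-08) at 12 h, -0.92 (adjusted p = 3e-09) at 24 h and -0.071 (adjusted p = 0.792) between them. The nearest tested protein-coding genes on the 2 sides did not pass. RB1CC1, an autophagy gene 480 kb beyond the end, changed by 0.070 (adjusted p = 0.173) at 12 h and -0.025 (adjusted p = 0.699) at 24 h. ATP6V1H, a subunit of the vacuolar proton pump 464 kb before the start, was at 0.22 (adjusted p = 4.98e-05) and 0.16 (adjusted p = 0.0023), both under the fold of 1.5. RP11-162D9.3, which overlaps OPRK1 on the other strand, had at most 8 reads in any library and was not tested.

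RP11-492A10.1 (chromosome 5, 114475339 to 114668410, minus strand) overlaps the end of KCNN2 on the other strand. Its libraries had 28, 16 and 27 reads at 0 h, 5, 9 and 9 after 12 h, and 4, 12 and 3 after 24 h, so that no later library reached the lowest 0 h library. The log2 fold change was -1.40 (edgeR, adjusted p = 0.057) at 12 h and -1.67 (adjusted p = 0.0224) at 24 h. This lncRNA passed the filter on low counts only through its 0 h libraries, so a call could only be lower and is not read as support. The 24 h call was lost in 4 of 15 alternatives, without 0 h replicate 1 or 3 and without 24 h replicate 1 or 3, where the adjusted p reached 0.116. DESeq2 gave this gene no adjusted p, which leaves no call either way, and it was not tested when at least 10 counts were asked of every library. Its reads were 1.78% of those of KCNN2, and since the strand setting of the counting is not given in the sources used here, reads of the overlapping genes cannot be told apart. YTHDC2, an RNA helicase gene 461 kb before KCNN2, changed by 0.053 (adjusted p = 0.532) at 12 h and 0.011 (adjusted p = 0.915) at 24 h.

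Around ABCB11, the gene with the deepest fall, 0 of 5 tested neighbours were called by edgeR or by DESeq2 at 12 h, 24 h or between them (at unadjusted p under 0.05, 2, 0 and 0). At adjusted p of at most 0.05, whatever the fold, the counts were 1, 0 and 0. SPC25, a kinetochore gene only 2.13 kb beyond the end of ABCB11, held 8.75 ± 1.04, 9.38 ± 0.227 and 8.40 ± 0.579 CPM (SD, n = 3 each) at 0 h, 12 h and 24 h. Its log2 fold change was 0.10 (edgeR, adjusted p = 0.485) at 12 h and -0.06 (adjusted p = 0.711) at 24 h. BBS5, a ciliary gene 448 kb before the start, was at -0.0035 (adjusted p = 0.985) at 24 h. G6PC2 and DHRS9, which lie closer to ABCB11 than BBS5 does, had 1 read each over all libraries.

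**Figure D2:**
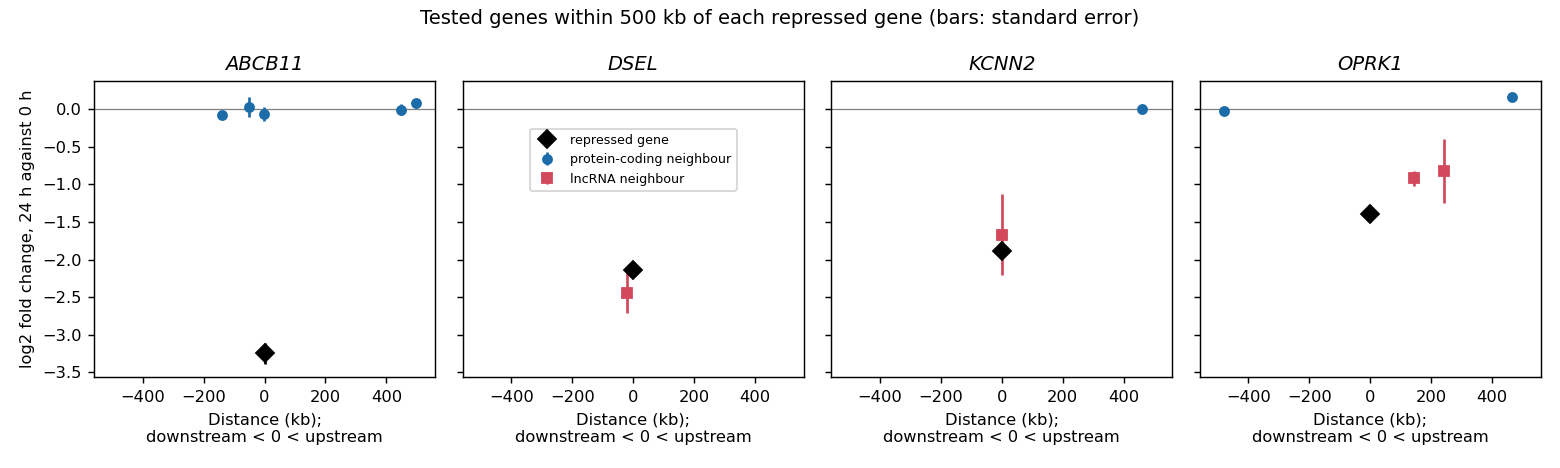
Log2 fold change at 24 h against 0 h (bars, standard error) of the tested genes within 500 kb of ABCB11, DSEL, KCNN2 and OPRK1, plotted by their distance in kb from the gene, with the 4 genes as black diamonds at 0 and the overlapping lncRNA of KCNN2 also at 0. The 8 protein-coding neighbours lie between -0.07 and 0.16, and the 4 lncRNAs between -2.44 and -0.82.

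The paralogs were compared to see whether family members moved alongside. Of 24 listed, 22 were in the table and 15 were tested. At 12 h 1 was higher and none lower (6.67%, beside 2.37% of all tested genes), and at 24 h 0 were called by edgeR or by DESeq2 (2 at unadjusted p under 0.05). From 12 h to 24 h 1, OPRD1, was lower. DESeq2 called 0 there, but it gave OPRD1 no adjusted p for that step, which leaves no call either way. The median log2 fold change was 0.08 at 12 h and -0.03 at 24 h. No paralog was called lower at 12 h or 24 h against 0 h.

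ABCB4, the phospholipid exporter and a near relative of ABCB11, was at 0.403 ± 0.0811, 0.402 ± 0.0808 and 0.235 ± 0.133 CPM (SD, n = 3 each) at the 3 times, with a 24 h log2 fold change of -0.80 (edgeR, adjusted p = 0.217). ABCB1, the multidrug transporter, had 3 reads in all. TAP2, which carries peptides into the endoplasmic reticulum, was at 0.23 (adjusted p = 0.0137) and 0.40 (adjusted p = 2.49e-05), under the fold of 1.5. ABCB9 changed by -0.20 (adjusted p = 0.0475) at 12 h and -0.046 (adjusted p = 0.731) at 24 h. The 24 h log2 fold change was -0.017 for ABCB6, 0.065 for ABCB8, 0.073 for ABCB10 and 0.069 for TAP1, with adjusted p of at least 0.362.

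DSE, the only other epimerase of this kind, stood at 5.70 ± 0.253, 4.76 ± 0.326 and 5.28 ± 0.864 CPM (SD, n = 3 each), and its log2 fold change was -0.26 (edgeR, adjusted p = 0.106) at 12 h and -0.11 (adjusted p = 0.542) at 24 h. Among the SK channels, KCNN1 was at 0.931 ± 0.303, 0.979 ± 0.0191 and 0.630 ± 0.261 CPM and KCNN3 at 0.264 ± 0.130, 0.208 ± 0.101 and 0.124 ± 0.0412 CPM. Their 24 h log2 fold changes were -0.57 (adjusted p = 0.188) and -1.07 (adjusted p = 0.208), the latter from 98 reads over all libraries. OPRD1, the delta opioid receptor, moved opposite to OPRK1 at 12 h. It held 0.452, 0.811 and 0.428 CPM at 0 h, 0.982, 1.42 and 1.22 CPM at 12 h, and 0.661, 0.607 and 0.384 CPM at 24 h, with every 12 h library above the others. Its log2 fold change was 1.10 (adjusted p = 0.00517) at 12 h, -0.034 (adjusted p = 0.958) at 24 h and -1.13 (adjusted p = 0.0142) from 12 h to 24 h, a call that was lost without the second 12 h library (adjusted p = 0.105) and without the third 24 h library (adjusted p = 0.103). SSTR5, a somatostatin receptor, was at 0.43 (adjusted p = 0.0424) at 12 h, under the fold of 1.5. OPRL1 and SSTR2 had 24 h values of -0.19 (adjusted p = 0.871) and -1.0 (adjusted p = 0.164). ABCB5, KCNN4, OPRM1, SSTR1, SSTR3 and NPBWR1 were under the filter on low counts.

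Genes that work with the 4 were read from lists by function, 132 genes of which 93 were tested. Over all lists 4 were called at 12 h (4.3%, beside 2.37% of all tested genes), 3 at 24 h (3.23%, beside 3.31%) and 2 from 12 h to 24 h (2.15%, beside 0.452%). None of those called against 0 h was lower, and the median log2 fold change was 0.01 at 12 h and 0.06 at 24 h.

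For ABCB11, 15 of 37 genes of bile acid transport and synthesis were tested, and 0 were called by edgeR or by DESeq2 at 12 h or 24 h (at unadjusted p under 0.05, 6 and 7). At adjusted p of at most 0.05, whatever the fold, 5 passed at 12 h and 6 at 24 h, in both directions. At 24 h ABCC4 was at 0.51 (edgeR, adjusted p = 3.68e-15), SLC27A2 at 0.33 (adjusted p = 0.000864) and RXRA at -0.20 (adjusted p = 2.2e-05). From 12 h to 24 h SLC51A, a subunit of the basolateral bile acid exporter, was higher by 0.61 (edgeR, adjusted p = 0.0359), from 1.57 ± 0.330 to 2.39 ± 0.280 CPM (SD, n = 3 each), a call lost in 5 of 17 alternatives. HSD17B4, a peroxisomal enzyme that shortens the bile acid side chain, was the most abundant at 281 ± 6.44, 282 ± 7.23 and 278 ± 2.41 CPM, with adjusted p of 0.953 at 12 h and 0.763 at 24 h. NR1H4, which encodes the bile acid receptor FXR, averaged 0 CPM at 0 h and at 24 h and 0.0138 CPM at 12 h.

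For DSEL, 30 of 33 genes of chondroitin and dermatan sulfate were tested. At 12 h 0 were called by edgeR or by DESeq2 (11 at unadjusted p under 0.05), and at 24 h 1 was higher and none lower. At adjusted p of at most 0.05, whatever the fold, 4 passed at 12 h and 9 at 24 h. PAPSS2, which makes the sulfate donor, rose from 0.538 ± 0.0790 to 1.17 ± 0.274 CPM (SD, n = 3 each) at 24 h, a log2 fold change of 1.12 (edgeR, adjusted p = 0.00192). B3GALT6 and CHPF, enzymes of the linkage region and of chain extension, were the most abundant and stood at 126 ± 1.23 and 125 ± 6.52 CPM at 0 h and at 132 ± 5.66 and 140 ± 2.66 CPM at 24 h. Neither reached the fold of 1.5.

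For KCNN2, 19 of 26 genes of calcium-activated potassium channels and calmodulin were tested. At 12 h 0 were called by edgeR or by DESeq2 (8 at unadjusted p under 0.05), and at 24 h 1 was higher. At adjusted p of at most 0.05, whatever the fold, 5 passed at 12 h and 7 at 24 h, in both directions. KCNMA1 was at -0.53 (edgeR, adjusted p = 3.24e-09) at 24 h, LRRC26 at -0.36 (adjusted p = 2.33e-07) and STIM1 at -0.30 (adjusted p = 5.16e-08). These were lower at 12 h too, while CSNK2A1 and CACNA1D were higher at both times. CACNA1D, an L-type calcium channel subunit, rose from 10.1 ± 0.481 to 16.1 ± 0.555 CPM (SD, n = 3 each) at 24 h, a log2 fold change of 0.68 (edgeR, adjusted p = 1.07e-09). CALM3, a calmodulin gene and the most abundant of the list, was at 364 ± 12.8, 358 ± 4.57 and 379 ± 13.1 CPM, with adjusted p of 0.740 at 12 h and 0.205 at 24 h.

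For OPRK1, 29 of 36 genes of the opioid system and Gi signaling were tested. At 12 h 4 were higher and none lower (13.8%, beside 2.37% of all tested genes called), and at 24 h 1 was higher (3.45%, beside 3.31%). Besides OPRD1 these were GNAI1, RGS2 and KCNJ9. GNAI1, an inhibitory G protein subunit, rose from 37.2 ± 1.66 to 59.4 ± 1.80 CPM (SD, n = 3 each) at 12 h, a log2 fold change of 0.68 (edgeR, adjusted p = 2.78e-14). RGS2, a regulator of G protein signaling, was higher at both times, by 0.67 (adjusted p = 0.000264) and 0.92 (adjusted p = 1.1e-06). KCNJ9, a G protein-gated potassium channel subunit, was higher by 0.88 (adjusted p = 0.00667) at 12 h, and without the first 12 h library this call was lost (adjusted p = 0.0744). GNB1, a G protein beta subunit and the most abundant of the list at 641 ± 13.5 CPM at 0 h, had adjusted p of 0.228 and 0.865 at the 2 times.

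**Figure D3:**
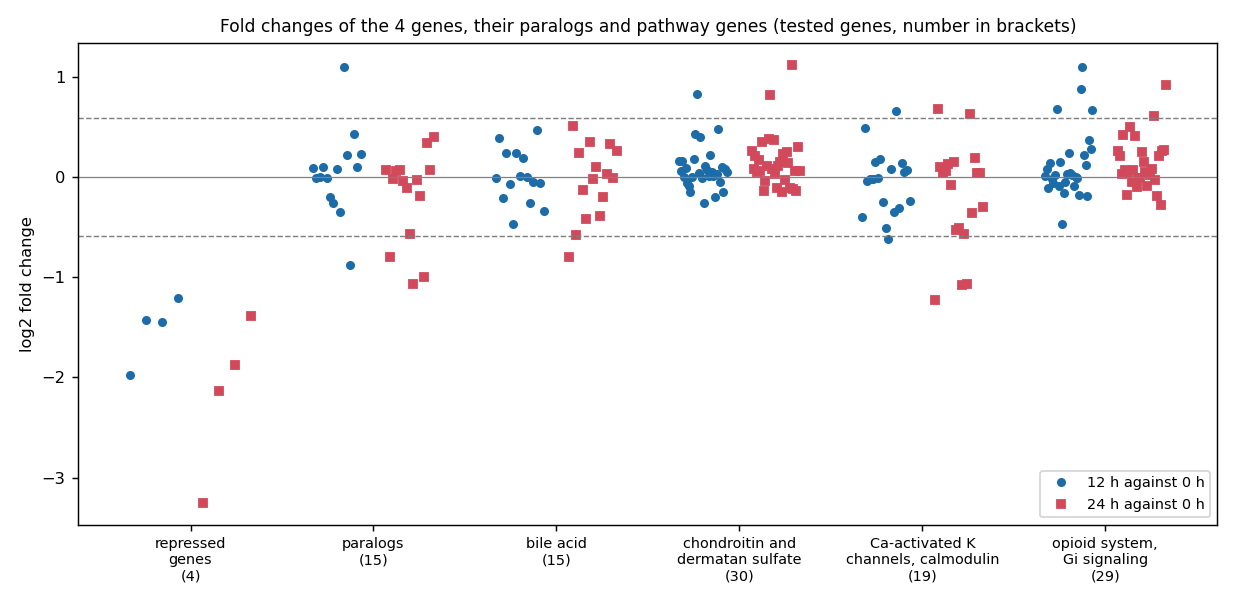
Log2 fold change at 12 h (blue circles) and 24 h (red squares) against 0 h of the 4 repressed genes, the 15 tested paralogs and the tested genes of each functional list, with dashed lines at a fold of 1.5. The 4 genes lie between -3.25 and -1.21, and 1 paralog, OPRD1, lies at 1.10 at 12 h.

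The genes whose levels were most like those of the 4 were found by Pearson's r of log2 CPM over the 9 libraries, among the 11396 genes that averaged log2 CPM 2 or more. The 9 points share the 3 time groups and the library depths, so any gene with a steady fall gets a high r, and r was at least 0.95 for 119 genes with ABCB11, 159 with DSEL, 166 with KCNN2 and 149 with OPRK1. For ABCB11 the nearest were MYNN (r = 0.997), a zinc finger gene, RP11-72O9.5 (r = 0.996), an lncRNA, and PEG3 (r = 0.991). For DSEL they were SLC22A3 (r = 0.996), an organic cation transporter, CHPT1 (r = 0.995), a phosphatidylcholine enzyme, and MYNN again (r = 0.995). RP11-72O9.5 lies within the span of SLC22A3 on the other strand (chromosome 6, 160369200 to 160386934). For KCNN2 they were CITED2, a transcriptional coregulator, RDH11, a retinol dehydrogenase, and PLPP1, a phospholipid phosphatase, each with r = 0.996. For OPRK1 they were SLC30A4 (r = 0.994), a zinc transporter, NRIP1 (r = 0.991), a nuclear receptor corepressor, and HOXC6 (r = 0.989), a homeobox gene.

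The likeness was one of shape and not of depth. The 4 genes were chosen for their falls, so their greater depth is not a result. Against 0 h the 24 h log2 fold change was -2.34 for PEG3 and -1.24 for MYNN beside -3.25 for ABCB11, -0.88 for SLC22A3 and -0.68 for CHPT1 beside -2.14 for DSEL, and -1.0 for CITED2, -0.70 for PLPP1 and -0.52 for RDH11 beside -1.88 for KCNN2. For OPRK1, at -1.39, the values were -1.14 for SLC30A4, -0.57 for NRIP1 and -0.30 for HOXC6. SLC30A4, NRIP1 and HOXC6 also changed little from 12 h to 24 h, by -0.24, -0.042 and -0.031. Between the 4 genes themselves r over the 9 libraries ran from 0.956 for ABCB11 and OPRK1 to 0.99 for ABCB11 and DSEL. The deviations from the group means gave values from -0.81 to 0.83. KCNN2 was negative with each of the others, at -0.81 with ABCB11, -0.36 with DSEL and -0.75 with OPRK1. The other pairs were at 0.55 (ABCB11 and DSEL), 0.74 (ABCB11 and OPRK1) and 0.83 (DSEL and OPRK1). Each value rests on only 9 deviations, so nothing is read from their signs. Among the 24 h libraries the third was the highest for ABCB11, DSEL and OPRK1 and the lowest for KCNN2. Its part in these values was not tested.

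**Figure D4:**
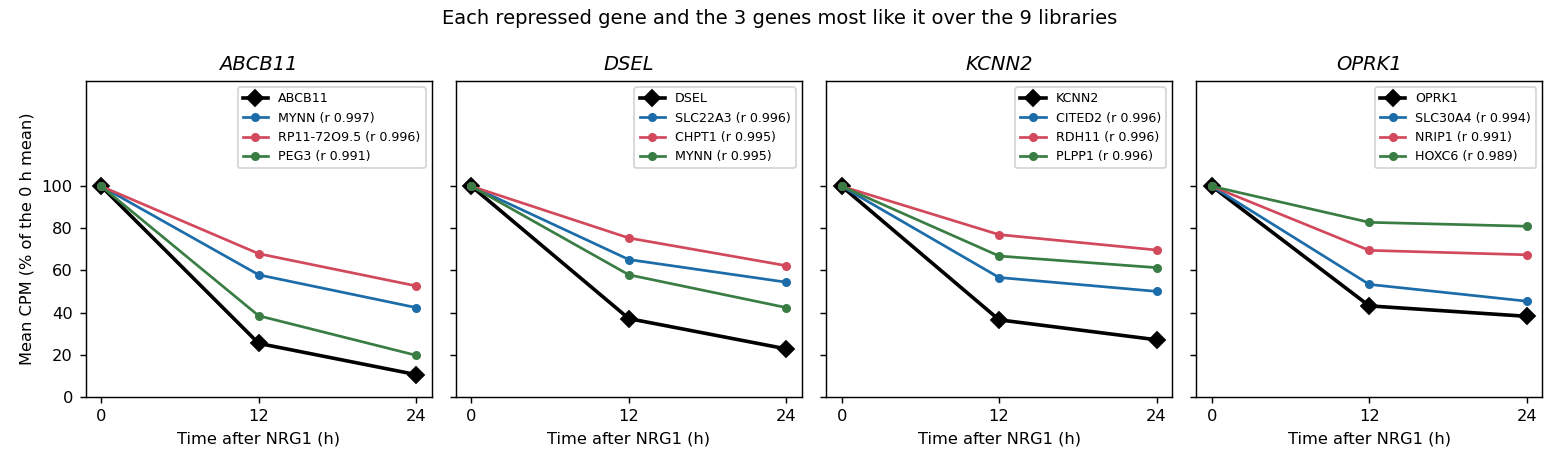
Mean CPM at 0 h, 12 h and 24 h as a percentage of the 0 h mean for each repressed gene (black diamonds) and the 3 genes with the highest Pearson's r to it over the 9 libraries (coloured circles). At 24 h the repressed genes stand at 10.5% (ABCB11), 22.7% (DSEL), 27.1% (KCNN2) and 38.2% (OPRK1), each below the genes most like it.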

How the data were processed

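LNCaP RNA was sequenced in 3 groups of 3 libraries, and groups were taken from the sample titles. Per the study's methods, adapters were trimmed with Cutadapt, reads aligned to GRCh38 with STAR and counted per gene with featureCounts. The authors deposited whole-number counts, without normalization, in 1 column per library. A further 14 columns of the table were empty and were left out. Handling of multiply mapped reads and of strand is not given in the sources used here. The methods name 1 LNCaP library at time 0 as left out without giving its treatment. The paper's figure legends give n = 3 for the NRG1 series, and all 3 libraries at 0 h in the table were used. Totals of 47016302 to 60985825 counts set the precision, and reads without molecular identifiers cover counting error only.

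Genes were kept with filterByExpr, scaled with TMM and tested with the robust quasi-likelihood test of edgeR 4.0.16 (R 4.3.3) on all 9 libraries, with Benjamini-Hochberg adjustment over 19250 genes. Tests were two-sided, and the scripts were checked on simulated data. CPM uses TMM-scaled totals and log2 CPM a prior count of 2. The alternatives were DESeq2 1.42.0, other scalings, filters and folds, only the 6 libraries compared, thinned counts, a block on replicate number, other windows and each library left out. Text names the 4 genes, overlapping genes, the nearest tested protein-coding gene on each side within 500 kb, called neighbours and pathway genes, tested paralogs, the most abundant tested pathway genes and the 3 genes most like each of the 4, plus a few genes chosen after their values were seen. The 4 genes and all lists were chosen with earlier results of these data known. The values of 1 tested paralog are not reported here. Sequences came from RefSeq and exon lengths from GENCODE.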

Additional observations from a re-analysis of the deposited data

Results flagged for a closer look

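In 3 pathway genes the 24 h effect differed from the 12 h effect by the edgeR test of 24 h against 12 h. OPRD1, the delta opioid receptor, had a 24 h effect lower by 1.13 on the log2 scale than its 12 h effect (-1.13, adjusted p = 0.0142), with all 3 of its 12 h libraries above all 3 of its 24 h libraries. GNAI1, higher by 0.68 at 12 h and still by 0.50 at 24 h (adjusted p = 4.32e-11), had a difference of -0.17 (adjusted p = 0.0122). SLC51A had a difference of 0.61 (adjusted p = 0.0359), with 1.57 CPM at 12 h and 2.39 CPM at 24 h.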

How the results depend on the processing

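The log2 fold changes of the 4 genes kept their direction in all 17 alternatives. They ranged over -2.04 to -1.91 (12 h), -3.54 to -3.09 (24 h) and -1.56 to -1.11 (24 h against 12 h) for ABCB11, and for OPRK1 over -1.26 to -1.14, -1.48 to -1.32 and -0.27 to -0.12. No result reversed. Of the 684 alternative values, 36 counts moved beyond their limit and 12 calls of single genes were lost. Without a fold threshold the called genes, in the order 12 h and then 24 h against 0 h, followed by the later step from 12 h, numbered 3605, 4065 and 1171, the called pathway genes 24, 32 and 9, the neighbours at 12 h 4, and the paralogs at 12 h 4 and at 24 h 1. At a fold of 2 they numbered 179, 266 and 34 for all genes, 1, 1 and 1 for the pathway genes, and 1 for the neighbours at 12 h. With DESeq2, 24 h against 12 h gave 0 paralogs and 1 pathway gene, with no adjusted p for OPRD1. With 1 library left out at a time, the called neighbours ranged from 2 to 4 at 12 h (4 without 0 h replicate 2 or 24 h replicate 3) and from 2 to 5 at 24 h (5 without 0 h replicate 2), and the pathway genes at 24 h from 3 to 5 (5 without 24 h replicate 1). From 12 h to 24 h the calls then ranged over 55 to 100 genes (55 without 12 h replicate 2), 0 to 1 paralogs (0 without 12 h replicate 2 or 24 h replicate 3) and 0 to 2 pathway genes (0 without 24 h replicate 3, and 1 without any other 12 h or 24 h library). Of the 12 entries named as most like the 4 genes (MYNN stands for both ABCB11 and DSEL), Spearman's rho kept 1, no scaling 7, and leaving out a library 5 to 10 (5 without 0 h replicate 1, and 7 without 24 h replicate 2 or 3). With the replicate block 448, 621 and 92 genes were called, and no call of a neighbour, paralog or pathway gene named in the text was lost. Deviations of libraries sharing a number correlated at -0.0367 to 0.0295, so the numbers were not taken as pairs. The cause of these shifts was not tested. RP11-492A10.1 rested on at most 28 reads in any library.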
